A study of Mus musculus with 4 samples.

Results

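Cytokine receptor genes, 9 in number (Kit, Flt3, Csf1r, Epor, Csf3r, Csf2rb, Il7r, Il6ra and Il1r1), were followed through single-cell RNA sequencing of mouse bone marrow hematopoietic stem and progenitor cells (HSPCs). All 9 symbols were found among the 32285 genes of the count matrix. The genes were listed by name, but with earlier results of these data known. The study transplanted C57BL/6 bone marrow in competition and recovered donor HSPCs, marked by CD45.2, at 20 weeks. Its samples were 2 from donors heterozygous for an Srcap mutation and 2 from WT donors, captured with 10x Genomics 3′ chemistry, and each is called independent. SRCAP is a chromatin remodelling ATPase. The change carried by the Srcap allele, the markers of the HSPC sort beyond CD45.2 and the number of recipients behind a sample were not given in the labels.

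The deposited matrix held 44151 cell barcodes from 4 libraries, told apart by a barcode suffix that no label or file ties to a genotype. No mutant value could therefore be set against a WT value, and the libraries are given as libraries 1 to 4, one by one or as a median with the range. After filtering, 41122 cells remained, with 9026 to 12418 cells and a median of 9824 to 10226.5 UMIs (unique molecular identifiers, one per captured RNA molecule) per library. Among the barcodes, 209 sequences occurred in more than 1 library. In HSC-like cells, 42.5% of 10149 genes were highest in library 2 and at least 1.2 times the lowest library, against 6.37% highest in library 1, 4.77% in library 3 and 9.92% in library 4 by the same rule. Library 4 had the largest HSC-like share, 17.0% of its cells against 7.49 to 10.7% in the others. Of the receptor genes, 5 of the 6 above 5 CPM in HSC-like cells were highest in library 2 by that rule, although Il6ra was at 8.36 CPM there and at 8.32 CPM in library 1. Csf2rb was the exception.

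Cytokine receptors pass signals for survival, division and lineage choice from soluble or membrane-bound ligands to blood progenitors. KIT (for stem cell factor), FLT3 and the CSF1 receptor are receptor tyrosine kinases. The receptors for erythropoietin and G-CSF, the common beta chain CSF2RB, the interleukin-7 receptor alpha chain and the interleukin-6 receptor alpha chain belong to the class I cytokine receptors, while IL1R1 is an immunoglobulin-type receptor that signals with the accessory protein IL1RAP. Stem cells depend on KIT, lymphoid-primed progenitors are recognised by FLT3, and the other receptors are known for narrower lineages.

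Cells were placed in marker gates that used none of the 9 receptors, all but one requiring at least 3 marker genes with at least 2 UMIs. The exception, the Cd34 Cd48 gate, required both of its 2 markers and took cells that met no other gate. These gates held 20531 cells, 49.9% of those kept. The largest were the HSC-like gate (4464 cells; Procr, Hlf, Mecom, Fgd5 and other stem cell genes), the Cd34 Cd48 gate (5276 cells, called by its genes because it rests on so few), the early granulocyte progenitor-like gate (2916 cells) and the lymphoid-primed progenitor-like gate (2341 cells). A gate of 179 cells drawn with monocyte markers was led by Lgals3, Id2 and Ccr2 and had Fcgr3 under 1 CPM, so it is called the Ccr2 Ly86 gate. Cells that met both the granulocyte and the monocyte markers, 594 in all, form the granulocyte and monocyte gate. A further 1549 cells fell into more than 1 gate and 19042 into none. Depth differed between gates, with a median of 2434 UMIs per cell in the mature B-like gate, 2482.5 in the macrophage-like gate and 9023.5 in the HSC-like gate, against 25809 in the granulocyte and monocyte gate.

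To place the genes, promoter sequences were available in the RefSeq table (GRCm38.p6) for 7 of the 9 genes. The 3 printed here belong to 3 genes with their highest levels in different lineages, Epor (erythroid), Il6ra (myeloid) and Flt3 (lymphoid), each as the 250 bases before the transcription start, 5′ to 3′ on the gene's strand. Capitals mark matches, on either strand, to a GATA motif (AGATAA), a PU.1 motif (GAGGAA) or a RUNX motif (TGTGGT).
Epor, chr9:21963577-21963826, minus strand: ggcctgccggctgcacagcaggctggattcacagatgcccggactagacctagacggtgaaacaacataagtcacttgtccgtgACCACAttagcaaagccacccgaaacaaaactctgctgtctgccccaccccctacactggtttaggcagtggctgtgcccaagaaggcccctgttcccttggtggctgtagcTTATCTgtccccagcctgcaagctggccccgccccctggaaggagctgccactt
Il6ra, chr3:89913197-89913446, minus strand: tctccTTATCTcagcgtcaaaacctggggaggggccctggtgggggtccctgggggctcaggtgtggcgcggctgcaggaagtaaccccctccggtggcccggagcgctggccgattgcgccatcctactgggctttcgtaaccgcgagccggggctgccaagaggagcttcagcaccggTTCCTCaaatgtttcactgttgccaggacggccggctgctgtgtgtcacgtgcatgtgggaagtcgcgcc
Flt3, chr5:147400490-147400739, minus strand: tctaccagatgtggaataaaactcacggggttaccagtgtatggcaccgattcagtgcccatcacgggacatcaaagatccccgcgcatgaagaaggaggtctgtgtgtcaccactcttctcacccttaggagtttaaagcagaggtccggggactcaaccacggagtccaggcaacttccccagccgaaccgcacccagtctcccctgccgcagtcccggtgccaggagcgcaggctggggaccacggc
Epor held the GATA letters on the opposite strand with the first base at position -54 from the start, and the RUNX letters, also on the opposite strand, at position -166. Il6ra held the GATA letters at position -245 and the PU.1 letters at position -70, both on the opposite strand. No match to any of the 3 motifs lay in the Flt3 window, or in either window of Il1r1. Csf3r held the PU.1 letters at position -86, both Kit windows held them, and Il7r held the RUNX letters at position 3 after the start. Over 32851 promoter windows of the same 300 bases, 11.2% held the GATA motif, 28.3% the PU.1 motif and 16.8% the RUNX motif. The matches within Epor and within Il6ra did not overlap each other. Csf2rb and Csf1r are named only.

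**Figure D1:**
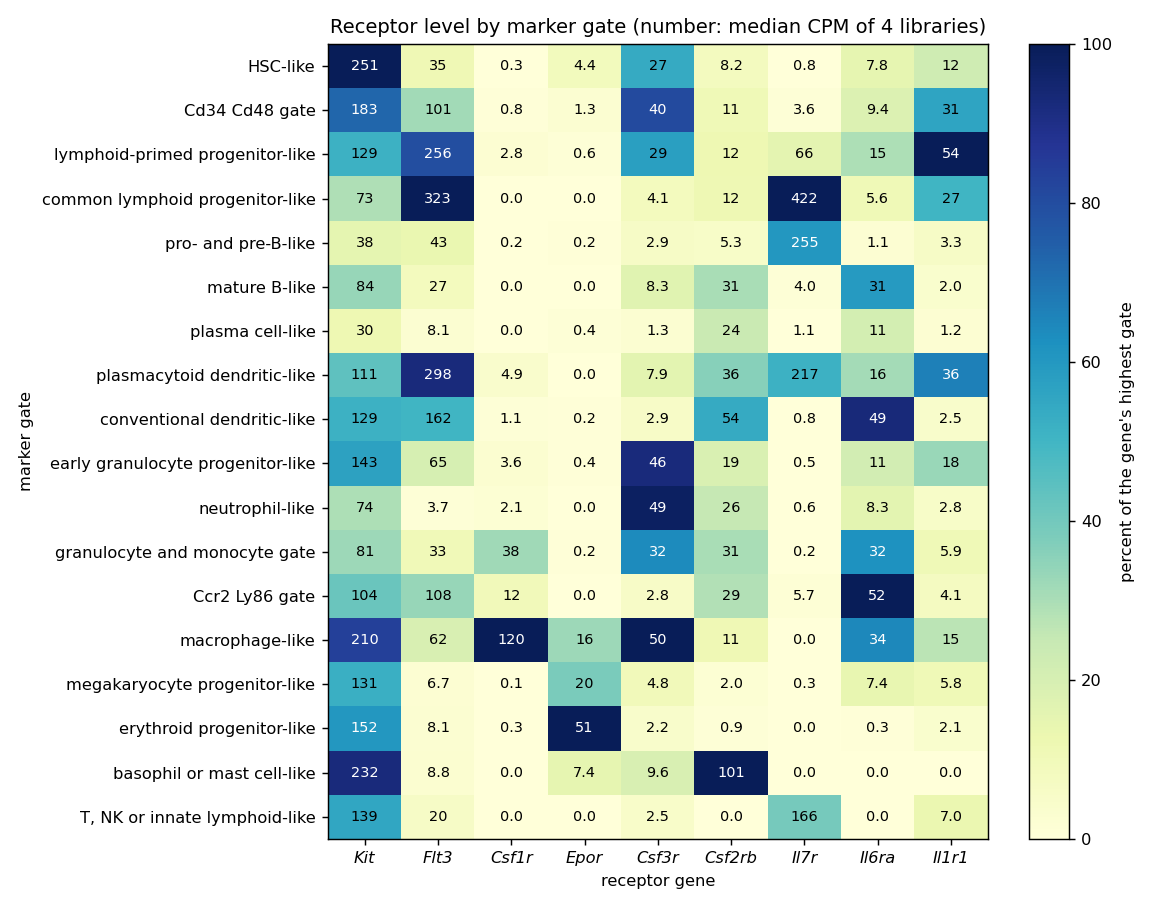
Median level of each receptor gene over the 4 libraries in 18 marker gates, printed in CPM (UMIs per 1000000 UMIs of the same gate and library), with colour as a percentage of the gene's highest gate. Kit was above 30 CPM in every gate, while Epor, Csf1r and Il7r were near 0 in most.

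Kit, the stem cell factor receptor, was present in all 18 gates. Its level in the HSC-like gate was 261, 303, 227 and 242 CPM in libraries 1 to 4 (UMIs per 1000000 UMIs of the same gate and library). Basophil or mast cell-like cells, of which mast cells keep KIT into maturity, had 199 to 312 CPM and overlapped the HSC-like range. The macrophage-like gate came next with 175 to 224 CPM, and then the Cd34 Cd48 gate with 171 to 215 CPM, below the HSC-like gate in each library. Erythroid progenitor-like cells had 143 to 204 CPM and early granulocyte progenitor-like cells 142 to 181 CPM. The lowest levels were those of pro- and pre-B-like cells, 31.9 to 46.0 CPM, and plasma cell-like cells, 22.2 to 43.4 CPM. In the order of medians, each of the 6 highest gates had a range that overlapped its neighbour's. Library 2 had the highest Kit level in 13 of the 17 gates with at least 10 cells per library.

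With every cell thinned to 5000 UMIs, Kit was seen in a median of 67.5% of HSC-like cells (range 59.8 to 77.0%), against 86.6% unthinned. The share was 56.8% in the Cd34 Cd48 gate and 43.2% in lymphoid-primed progenitor-like cells. It was 17.7% in pro- and pre-B-like cells and 10.5% in plasma cell-like cells, whose median depth was 13482 and 17819.5 UMIs before thinning. Free RNA in the droplets can give such UMIs, and no gate was known to lack Kit, so these lowest shares are given beside the others as the background. In the macrophage-like gate, Cd34, another progenitor gene, had 198 to 350 CPM, near the 218 to 324 CPM over all cells, while the macrophage gene C1qa had 846 to 1696 CPM. The part of other cells' RNA in the Kit value of that gate was not tested.

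Flt3, the receptor for FLT3 ligand, was highest in lymphoid and dendritic gates. Common lymphoid progenitor-like cells had 311, 334, 318 and 327 CPM in libraries 1 to 4. Lymphoid-primed progenitor-like cells had 251, 275, 248 and 262 CPM, and plasmacytoid dendritic-like cells 221 to 377 CPM, a gate of 44 cells in all. Conventional dendritic-like cells had 158 to 173 CPM, a range that lay apart from those of the lymphoid-primed gate above it and the Ccr2 Ly86 gate (104 to 122 CPM) below it. The Cd34 Cd48 gate had 95.5 to 107 CPM. HSC-like cells had 38.8, 47.7, 31.9 and 21.3 CPM, so library 2 was 2.24 times library 4. Megakaryocyte progenitor-like cells, at 2.95 to 8.83 CPM, and neutrophil-like cells, at 2.08 to 8.21 CPM, were the lowest. In thinned cells, Flt3 was seen in 71.0% of lymphoid-primed and 11.8% of HSC-like cells, against 1.71% in the megakaryocyte progenitor-like gate. An antisense transcript, Gm26597, overlaps Flt3 on the other strand and had 1105 UMIs in the kept cells.

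Il7r, the alpha chain of the interleukin-7 receptor and a requirement for B lymphopoiesis, followed the lymphoid path. It was at 412, 433, 327 and 491 CPM in common lymphoid progenitor-like cells and at 226, 262, 250 and 260 CPM in pro- and pre-B-like cells, and these ranges lay apart. The pro- and pre-B-like gate held a median of 50.01% of all Il7r UMIs with 4.25% of all UMIs. Lymphoid-primed progenitor-like cells had 48.0 to 74.8 CPM. Plasmacytoid dendritic-like cells had 132 to 267 CPM and the T, NK or innate lymphoid gate 54.7 to 193 CPM. HSC-like cells had 0.331 to 1.19 CPM. None of the erythroid progenitor-like cells' UMIs was from Il7r, which allows up to 0.450 CPM over the 4 libraries at a limit of 3 counts. The share of thinned cells with a UMI was 80.4% in the common lymphoid gate, 65.3% in the pro- and pre-B-like gate and 17.3% in the lymphoid-primed gate, against 0.21% in the HSC-like gate.

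Il1r1, the signalling receptor for interleukin-1, had its highest median in the lymphoid-primed progenitor-like gate, at 57.6, 61.0, 50.5 and 51.2 CPM in libraries 1 to 4. The Cd34 Cd48 gate had 25.2 to 33.6 CPM, early granulocyte progenitor-like cells 14.8 to 20.2 CPM and HSC-like cells 8.43 to 17.1 CPM. Pro- and pre-B-like cells had 1.19 to 4.39 CPM and plasma cell-like cells 0 to 3.21 CPM. The lymphoid-primed gate was above the Cd34 Cd48 gate in each library and the ranges were apart. Plasmacytoid dendritic-like cells spread from 10.1 to 77.7 CPM on 15 UMIs, too few to place the gate in the order.

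Csf1r, the macrophage colony-stimulating factor receptor, was low outside 2 gates. The macrophage-like gate had 150, 102, 137 and 66 CPM in libraries 1 to 4, on 94 UMIs. The granulocyte and monocyte gate had 37.6, 38.7, 36.7 and 47.8 CPM, below the macrophage-like gate in each library, and held a median of 42.2% of all Csf1r UMIs. The Ccr2 Ly86 gate had 4.88 to 17.9 CPM and early granulocyte progenitor-like cells 2.87 to 3.66 CPM. HSC-like cells had 0.166 to 0.511 CPM, on 14 UMIs. In the macrophage-like gate, Csf1r was seen in a median of 36.5% of all cells before thinning, and Kit in 32.9%. Thinning to 5000 UMIs lowers detection within a cell and kept only the 51 deepest of its 146 cells. Of these 51, Csf1r was seen in 7 and Kit in 40, so these counts do not stand for the whole gate. Csf1r overlaps Hmgxb3 on the other strand and a miRNA gene.

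Csf3r, the G-CSF receptor, was spread over stem cell, progenitor and neutrophil gates. It was at 33.9 to 54.0 CPM in neutrophil-like cells, 43.6 to 49.7 CPM in early granulocyte progenitor-like cells and 36 to 46.7 CPM in the Cd34 Cd48 gate. Lymphoid-primed progenitor-like cells had 26.4 to 30.6 CPM and HSC-like cells 25, 32.9, 27.7 and 25.7 CPM. The macrophage-like gate spanned 30.6 to 87.5 CPM on 35 UMIs. Megakaryocyte progenitor-like cells had 3.54 to 6.77 CPM, erythroid progenitor-like cells 0 to 4.04 CPM and conventional dendritic-like cells 0.745 to 6.50 CPM. The Ccr2 Ly86 gate had 0 to 3.30 CPM, against 23.4 to 33.4 CPM in the granulocyte and monocyte gate.

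Csf2rb, the beta chain shared by the receptors for GM-CSF, interleukin-3 and interleukin-5, was highest in basophil or mast cell-like cells, at 84.5, 96.0, 106 and 139 CPM. Conventional dendritic-like cells had 47.9 to 56.5 CPM, below that gate in each library. The granulocyte and monocyte gate had 29.2 to 40.6 CPM, plasma cell-like cells 16.6 to 28.1 CPM and HSC-like cells 7.73 to 8.98 CPM. Megakaryocyte progenitor-like cells had 0.589 to 2.76 CPM and erythroid progenitor-like cells 0.577 to 1.23 CPM. No Csf2rb UMI was found in the T, NK or innate lymphoid-like gate, which allows up to 3.31 CPM. The mouse has a near copy, Csf2rb2, whose product serves the interleukin-3 receptor. Of all 90-base windows of the Csf2rb transcript, 8.19% were found letter for letter in Csf2rb2, but 0% of those in the last 500 bases, the end that 3′ sequencing reads. Csf2rb2 itself was at 17.2 to 54.9 CPM in basophil or mast cell-like cells and at 1.15 CPM over all cells.

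Il6ra, the interleukin-6 receptor alpha chain, was highest in the Ccr2 Ly86 gate (47.6 to 60.9 CPM) and conventional dendritic-like cells (35.9 to 55.0 CPM), whose ranges overlapped. The granulocyte and monocyte gate had 29.5 to 36.6 CPM, lymphoid-primed progenitor-like cells 13.2 to 16.7 CPM and HSC-like cells 6.75 to 8.36 CPM. It was at 0.992 to 1.55 CPM in pro- and pre-B-like cells and had 2 UMIs in the erythroid progenitor-like gate.

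Epor, the erythropoietin receptor, was highest in erythroid progenitor-like cells, at 55.9, 64.3, 45.3 and 45.6 CPM in libraries 1 to 4. Megakaryocyte progenitor-like cells had 14.7, 23.7, 16.2 and 23.0 CPM, so the ranges lay apart. HSC-like cells had 2.96 to 4.72 CPM and the Cd34 Cd48 gate 1.10 to 1.48 CPM, which were also apart. The macrophage-like gate spanned 0 to 26.4 CPM, on 5, 5, 0 and 2 UMIs, and basophil or mast cell-like cells 0 to 12.3 CPM. Lymphoid-primed progenitor-like cells had 0 to 0.905 CPM. No Epor UMI was found in the common lymphoid progenitor-like, neutrophil-like or plasmacytoid dendritic-like gates. At a limit of 3 counts, these allow up to 8.18, 6.23 and 47.1 CPM in a single library, above the HSC-like levels. Thinned to 5000 UMIs, 22.6% of erythroid and 9.88% of megakaryocyte progenitor-like cells had an Epor UMI, against 1.82% of HSC-like cells and 0.223% of early granulocyte progenitor-like cells.

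**Figure D2:**
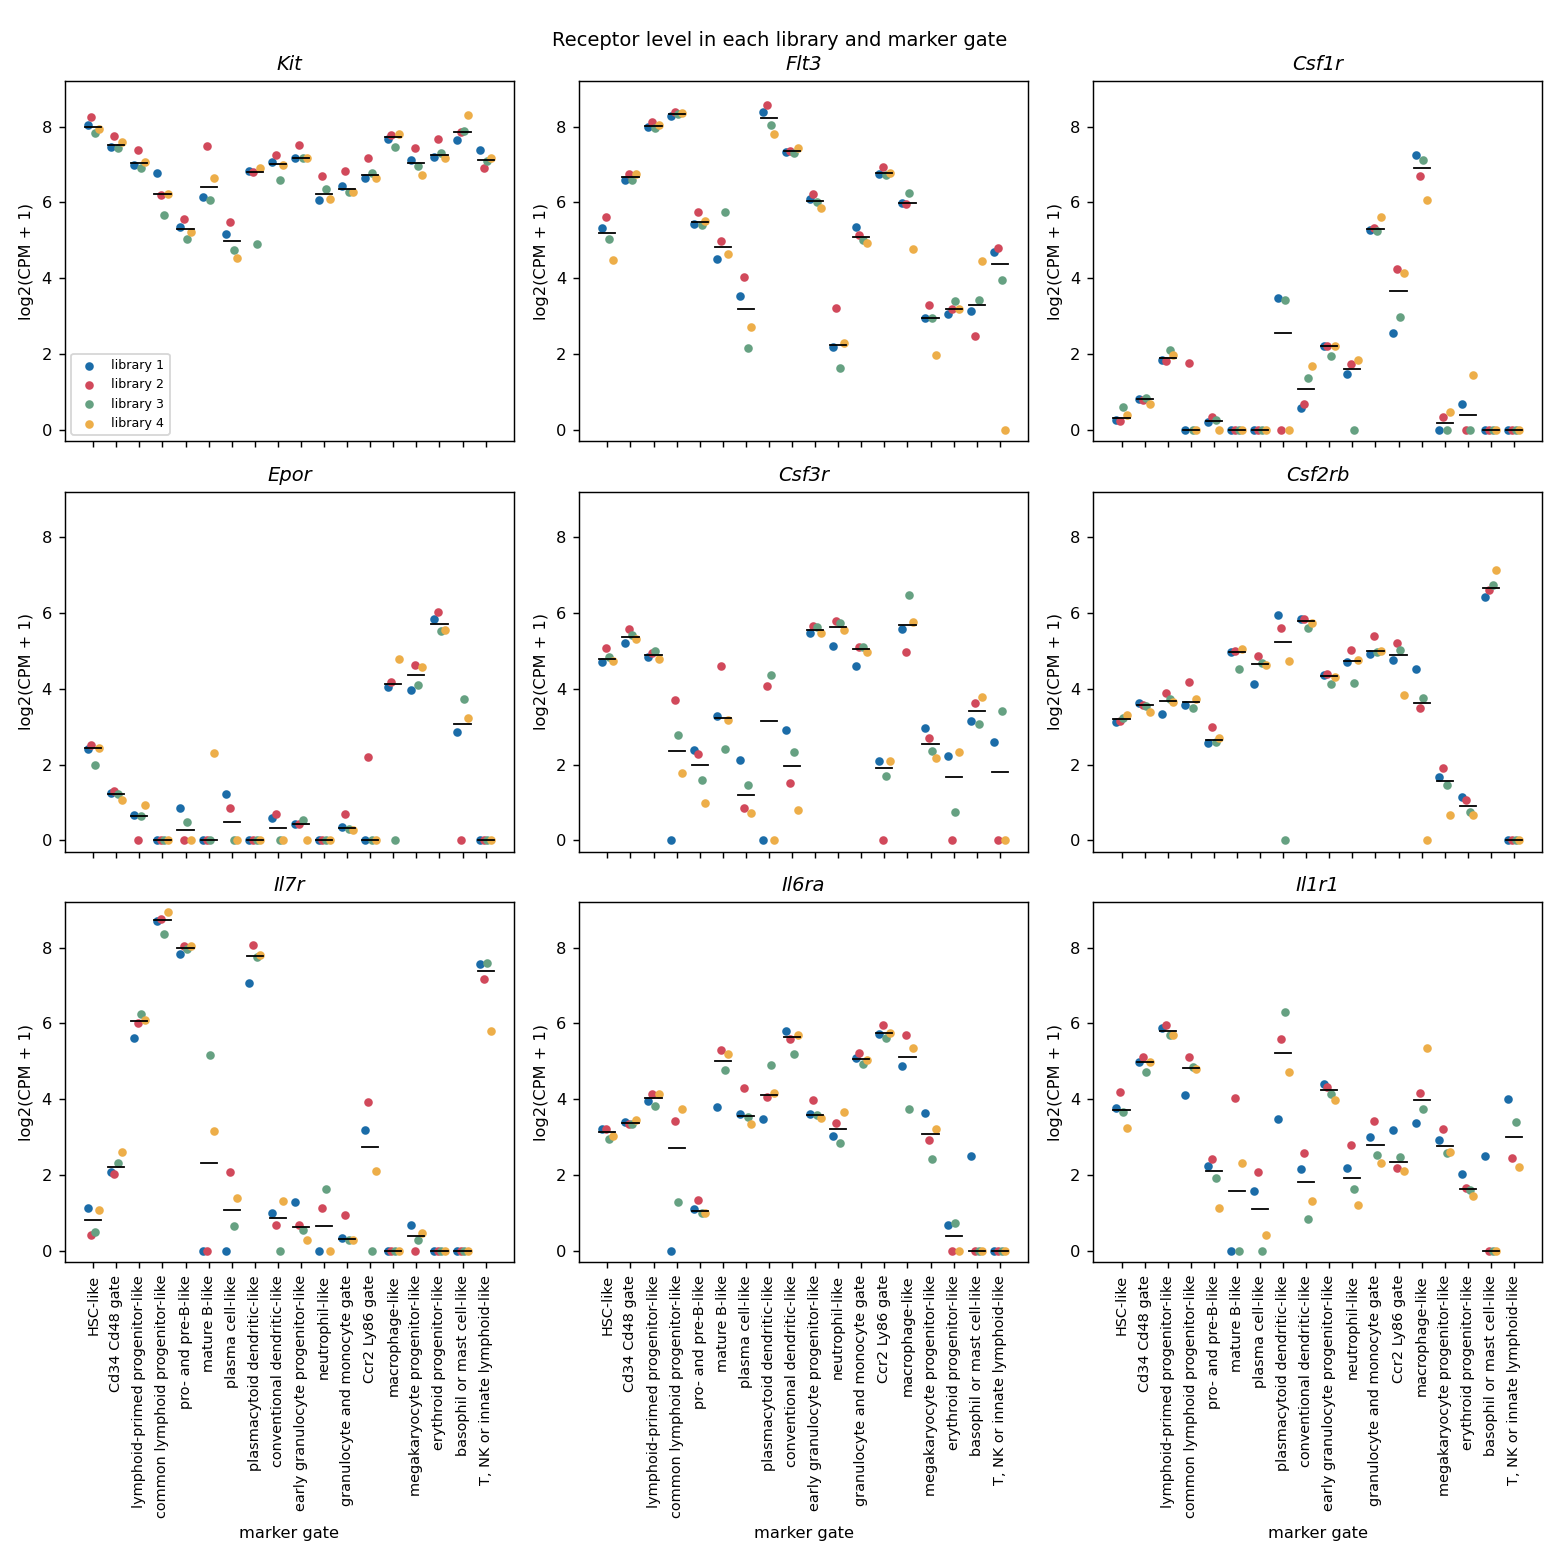
Level of each receptor gene, as log2(CPM + 1), in each of 4 libraries (coloured points) and 18 marker gates, with the median as a bar. The libraries lay close together in the large gates, such as 248 to 275 CPM for Flt3 in lymphoid-primed progenitor-like cells, and spread in the small ones, such as 10.1 to 77.7 CPM for Il1r1 in plasmacytoid dendritic-like cells.

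Contrasts between gates were made within each library as the ratio of CPM plus 1, and a gene was called when each of the 4 libraries showed a difference of 2-fold or more, all in 1 direction, and averaged at least 5 CPM over both sides. It is a threshold on size with no test behind it, and the 3 lineage contrasts share the HSC-like side. A gene under 5 CPM on 1 side could pass the filter only by being high on the other, so its direction was fixed by the filter. Of 7 receptor genes past the filter, 3 were higher and 0 lower in lymphoid-primed progenitor-like than in HSC-like cells, beside 1.92% of all 9975 genes tested higher and 5.07% lower. Il7r was at 48.0, 63.5, 74.8 and 67.7 CPM in lymphoid-primed cells, against 1.19, 0.331, 0.409 and 1.10 CPM in HSC-like cells, a median log2 ratio of 5.32 (range 4.48 to 5.75). It passed only through the lymphoid-primed side, so its call is a description of that level. Flt3 had a median log2 ratio of 2.79 (2.50 to 3.56) and Il1r1 of 2.06 (1.77 to 2.47). Kit had a log2 ratio of -0.90 (-1.04 to -0.86), at 126, 165, 120 and 132 CPM in lymphoid-primed cells against the HSC-like levels given above, and missed the 2-fold rule in 3 libraries. Csf3r, at 0.08, was the closest to no difference.

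Set against the HSC-like gate, the joined early granulocyte, granulocyte and monocyte, and Ccr2 Ly86 gates had 2 receptor genes higher and 0 lower of 7 past the filter, beside 2.03% of 9814 genes higher and 8.29% lower. The number higher was 1 with a pseudocount of 5 CPM and 4 in clusters drawn without the receptor genes. It was 0 with a filter of 20 CPM, which neither Csf1r nor Csf2rb reached over both sides. No share of all genes was set beside these altered counts. Csf1r was at 9.64, 11.5, 10.4 and 18.6 CPM in these gates, against 0.198, 0.166, 0.511 and 0.306 CPM in HSC-like cells, on 2, 2, 5 and 5 UMIs, and passed only through the granulocyte and monocyte side. Its median log2 ratio was 3.29 (2.92 to 3.91), and that of Csf2rb was 1.31 (1.16 to 1.52). Il6ra had a log2 ratio of 1.15 (0.88 to 1.25) and Csf3r of 0.59 (0.45 to 0.65), short of the rule. Kit was at -0.93 (-1.01 to -0.83).

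The joined megakaryocyte and erythroid gates, set against HSC-like cells, had 1 receptor gene higher and 2 lower of 6 past the filter, beside 1.45% of 9861 genes higher and 7.05% lower. With a filter of 20 CPM, which Epor and Csf3r did not reach over both sides, 0 were higher and 1 lower. In clusters 1 was lower. No share of all genes was set beside these altered counts. Epor passed the 5 CPM filter only through the megakaryocyte and erythroid side and Csf3r only through the HSC-like side. Epor was at 24.8, 37.4, 23.2 and 28.7 CPM, against 4.36, 4.72, 2.96 and 4.46 CPM in HSC-like cells, a median log2 ratio of 2.53 (2.27 to 2.75). Csf3r was at 6.01, 3.66, 3.27 and 3.66 CPM, against 25, 32.9, 27.7 and 25.7 CPM, a log2 ratio of -2.63 (-2.86 to -1.89). Flt3 was at 6.92, 8.61, 7.37 and 4.25 CPM, against 38.8, 47.7, 31.9 and 21.3 CPM, a log2 ratio of -2.21 (-2.34 to -1.98). When clusters drawn without the receptor genes replaced the gates, the Flt3 ratio turned to 0.23, whereas Epor and Csf3r kept their direction. At most 33.1 and 31.8% of cells in the clusters named megakaryocyte progenitor met any 1 marker set. For erythroid progenitor this share was 68.7%, and for HSC 45.4 and 66.5%. Kit had a log2 ratio of -0.84 (-1.07 to -0.72), short of the rule in 3 libraries.

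**Figure D3:**
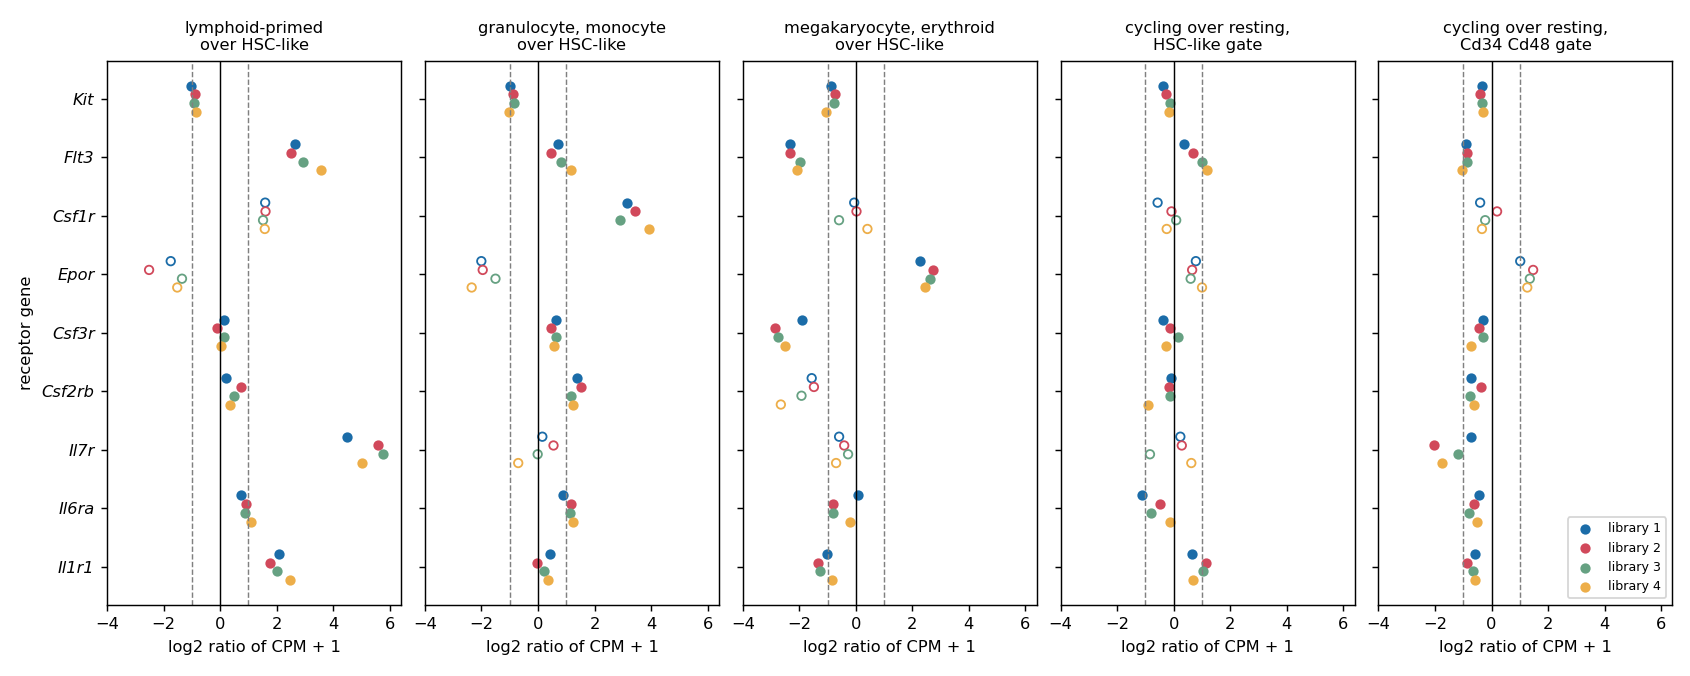
Log2 ratio of CPM + 1 for each receptor gene in 5 contrasts, with 1 point per library, filled where the gene passed the filter of 5 CPM and open where it did not, and dashed lines at 2-fold. Il7r, Flt3 and Il1r1 lay right of the 2-fold line in 4 of 4 libraries for lymphoid-primed cells, Csf1r and Csf2rb for granulocyte and monocyte cells, and Epor for megakaryocyte and erythroid cells.

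Among 46 other cytokine receptor genes, listed by name, the same rule called 4 higher and 3 lower of 30 past the filter in lymphoid-primed cells. Il18rap and Il18r1, the chains of the interleukin-18 receptor, had median log2 ratios of 1.98 and 1.84, while Pdgfrb had 1.36 and Il10rb 1.28. Among the lower ones, Tek, the receptor for angiopoietins, was at -3.07 and Il11ra1 at -1.27. In the granulocyte and monocyte gates, 0 were higher and 4 lower of 28, among them Tek at -2.72, Il27ra at -1.76 and Bmpr2 at -1.34. In the megakaryocyte and erythroid gates, 1 was higher and 11 lower of 30. The one higher was Il1rl1, the interleukin-33 receptor, at 9.17, 14.3, 9.66 and 10.3 CPM against 0.198, 0.497, 0 and 0.244 CPM in HSC-like cells. It passed only through the megakaryocyte and erythroid side, where erythroid progenitor-like cells had 33.8 to 40.4 CPM and megakaryocyte progenitor-like cells 0 to 1.66 CPM, and in clusters 0 of the other receptor genes were higher. Il18rap at -2.22, Il2rg at -2.30 and Il4ra at -1.72 were the lowest by the library closest to 0. Of the genes named here, Tek, Tslp, Flt3l, Il18rap and Il4ra were likewise under 5 CPM on the side where they were lower. The medians over the other receptor genes tested were -0.19, -0.27 and -0.78 in the 3 contrasts, beside -0.07, -0.16 and -0.06 over all genes tested. Of 16 ligand genes, 2 passed the filter in each of these contrasts. Tslp was lower in lymphoid-primed cells (-1.84) and Flt3l in granulocyte and monocyte cells (-1.67). These 2 ligands, Bmpr2 and Il10rb were named after their values were seen.

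Several of the receptors work with a partner chain, and these were measured in the same cells. Il2rg, the gamma chain that pairs with IL7R, was at 52.9 CPM in the lymphoid-primed and 56.0 CPM in the common lymphoid gate, against 64.6 CPM in HSC-like cells where Il7r was near 0. Of 845 pro- and pre-B-like cells with an Il7r UMI at 5000 UMIs, 98 also had an Il2rg UMI, a median of 10.7% against 11.7% of all cells of the gate. Csf2ra, the GM-CSF receptor alpha chain, was highest in conventional dendritic-like cells at 120 to 147 CPM, where 65 of 141 cells with Csf2rb also carried it, a median of 46.0% against 46.3% of all cells of the gate. Il3ra, the interleukin-3 receptor alpha chain, was highest in basophil or mast cell-like cells at 50.3 to 61.4 CPM, the gate with the most Csf2rb. Il6st, the signal-transducing partner of the interleukin-6 receptor, was highest in the common lymphoid gate at 60.01 to 72.7 CPM, where Il6ra had 10 UMIs, and it was at 1.67 CPM in erythroid progenitor-like cells. Il1rap was low throughout, with its highest median, 11.7 CPM (7.29 to 14.4), in the T, NK or innate lymphoid-like gate on 10 UMIs. Of 568 lymphoid-primed cells with Il1r1, 20 had an Il1rap UMI, a median of 3.09% against 3.08% of all cells of the gate.

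Within the HSC-like gate, receptor levels were followed by how many of the 8 stem cell markers a cell carried, at 3 (3012 cells), 4 (1106 cells) and 5 or more (346 cells). Flt3 had a median of 39.7, 27.5 and 13.7 CPM over these steps, and Il1r1 13.7, 9.34 and 7.56 CPM. Kit had 248.9, 257 and 274 CPM and Csf3r 26.6, 27.1 and 24.6 CPM. Il7r had 31, 7 and 0 UMIs. Flt3 was lower at 5 or more markers than at 3 in each of the 4 libraries, and so was Il1r1, but the highest step rested on 66 Flt3 and 36 Il1r1 UMIs.

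**Figure D4:**
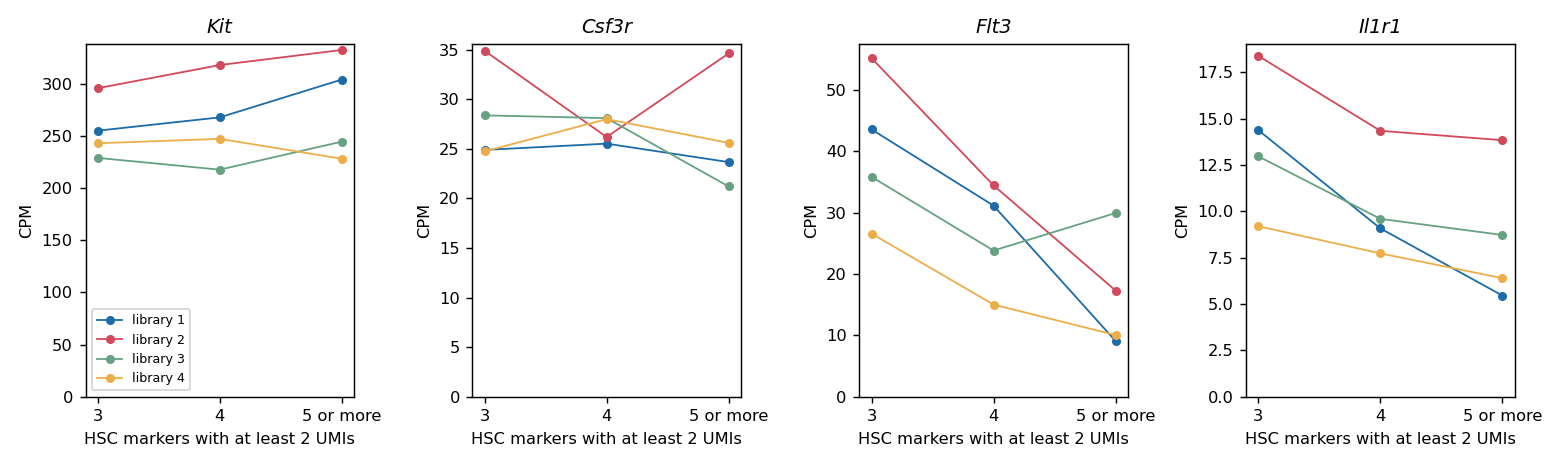
CPM of Kit, Csf3r, Flt3 and Il1r1 within the HSC-like gate, by the number of stem cell markers with at least 2 UMIs, with 1 line per library. Flt3 and Il1r1 ended lower than they began in 4 of 4 libraries, at medians of 13.7 against 39.7 CPM and 7.56 against 13.7 CPM, while Kit stayed between 218 and 332 CPM.

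Cells were also split by 10 S and G2/M genes into cycling cells (at least 3 of them with 2 or more UMIs) and resting cells (0 of them). Cycling cells made up 16.2 to 32.1% of the HSC-like gate and 49.4 to 59.4% of the Cd34 Cd48 gate. Of the receptor genes past the filter, 0 of 6 met the 2-fold rule in the HSC-like gate, where 4.92% of 10132 genes were called higher and 1.56% lower in cycling cells. In the Cd34 Cd48 gate 0 of 7 met it, where 4.03% of 9634 genes were higher and 0.488% lower. Flt3 had a log2 ratio of 0.83 (0.35 to 1.18) for cycling over resting HSC-like cells and of -0.90 (-1.06 to -0.87) in the Cd34 Cd48 gate. Il1r1 likewise had 0.86 (0.63 to 1.14) in HSC-like cells and -0.62 (-0.86 to -0.59) in the Cd34 Cd48 gate. Stem cell markers summed to 812 to 904 CPM in cycling and 1649 to 1928 CPM in resting HSC-like cells, and lymphoid-primed markers to 267 to 292 CPM in cycling and 557 to 593 CPM in resting cells of the Cd34 Cd48 gate. The HSC-like gate asked for at least 3 of these stem cell markers with 2 or more UMIs, whatever the depth. The Cd34 Cd48 gate took only cells that missed the lymphoid-primed gate. Resting cells were shallower in both gates, with a median of 7212 to 8268 against 16098 to 16979 UMIs in the HSC-like gate. These marker sums therefore cannot be told apart from the gate rule and depth, and their part in the receptor ratios was not tested. In clusters drawn without the receptor genes, both HSC-like ratios turned, to -0.59 for Flt3 and -2.47 for Il1r1. At most 45.4 and 66.5% of cells in the clusters named HSC met any 1 marker set. Kit was slightly lower in cycling cells, at -0.22 in HSC-like cells and -0.34 in the Cd34 Cd48 gate.

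Co-detection was counted in single cells after thinning to 5000 UMIs, which left out 2004 cells, among them 159 of 201 mature B-like and 95 of 146 macrophage-like cells, and kept 39118. The joint share of a pair was set beside the product of its single shares in the same gate and library, so that a ratio of 1 is what unrelated detection gives. Of the 36 pairs, 27 had both genes in at least 5% of a gate's cells in 4 of 4 libraries, in 100 combinations of pair and gate. The median ratio over these was 1.01, and 13 lay above 1 and 10 below 1 in each library. Counts were small, and the 95% exact binomial interval of the joint share, which covers counting error only, missed the product in at least 2 libraries in 4 combinations.

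The 3 highest median ratios were those of Flt3 with Il1r1 in early granulocyte progenitor-like cells, Kit with Csf2rb in common lymphoid progenitor-like cells and Csf1r with Csf2rb in the granulocyte and monocyte gate. Flt3 and Il1r1 were seen together in 3.56, 3.95, 3.78 and 3.48% of early granulocyte progenitor-like cells, against products of 2.28, 2.59, 2.59 and 1.97%, a median ratio of 1.54 (1.46 to 1.77) on 107 cells. The interval lay above the product in 3 libraries. The Kit and Csf2rb ratio, also 1.54, rested on 5 cells and ran from 0 to 3.20. That of Csf1r and Csf2rb was 1.37 (1.25 to 1.81) on 23 cells, with the product inside the interval in each library. The lowest medians by the same rule, 4 tied at 0, were all in the macrophage-like gate, with 0 or 1 joint cell among 51, and cannot be read at this depth.

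In larger gates, chosen after the values were seen, 70 combinations came from 8 gates of at least 500 thinned cells, and 50 of them had a median ratio between 0.8 and 1.25. Flt3 and Il1r1 exceeded the product in the Cd34 Cd48 gate too, at 6.69, 8.38, 6.18 and 7.55% of cells against 5.19, 5.91, 4.15 and 5.92%, a ratio of 1.35 (1.27 to 1.49) on 375 cells. In the lymphoid-primed gate, where 71.0% of cells had Flt3, their ratio was 1.04 (1.03 to 1.07). Csf3r and Il7r were seen together in 6 of 643, 9 of 703, 3 of 552 and 0 of 413 lymphoid-primed cells, against products of 1.80, 2.47, 2.57 and 2.68%, a median ratio of 0.36 (0 to 0.52). Without library 1 or without library 2 the median was 0.21, and it was 0.57 unthinned and 0.61 at 3000 UMIs. The interval lay below the product in 3 libraries. Kit and Il7r in the same gate had a ratio of 0.69 (0.60 to 0.90) on 135 cells, and Flt3 and Il7r 1.05 (0.95 to 1.08) on 295 cells. Csf2rb and Il1r1 in early granulocyte progenitor-like cells had 0.43 (0.29 to 0.50) on 10 cells, with the product inside each interval. Flt3 and Csf3r in HSC-like cells had 1.35 (1.31 to 1.52) on 84 cells, with the product inside each interval. Kit and Flt3 stayed at 0.99 (0.91 to 0.99) in HSC-like and 1.01 (0.98 to 1.06) in lymphoid-primed cells.

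**Figure D5:**
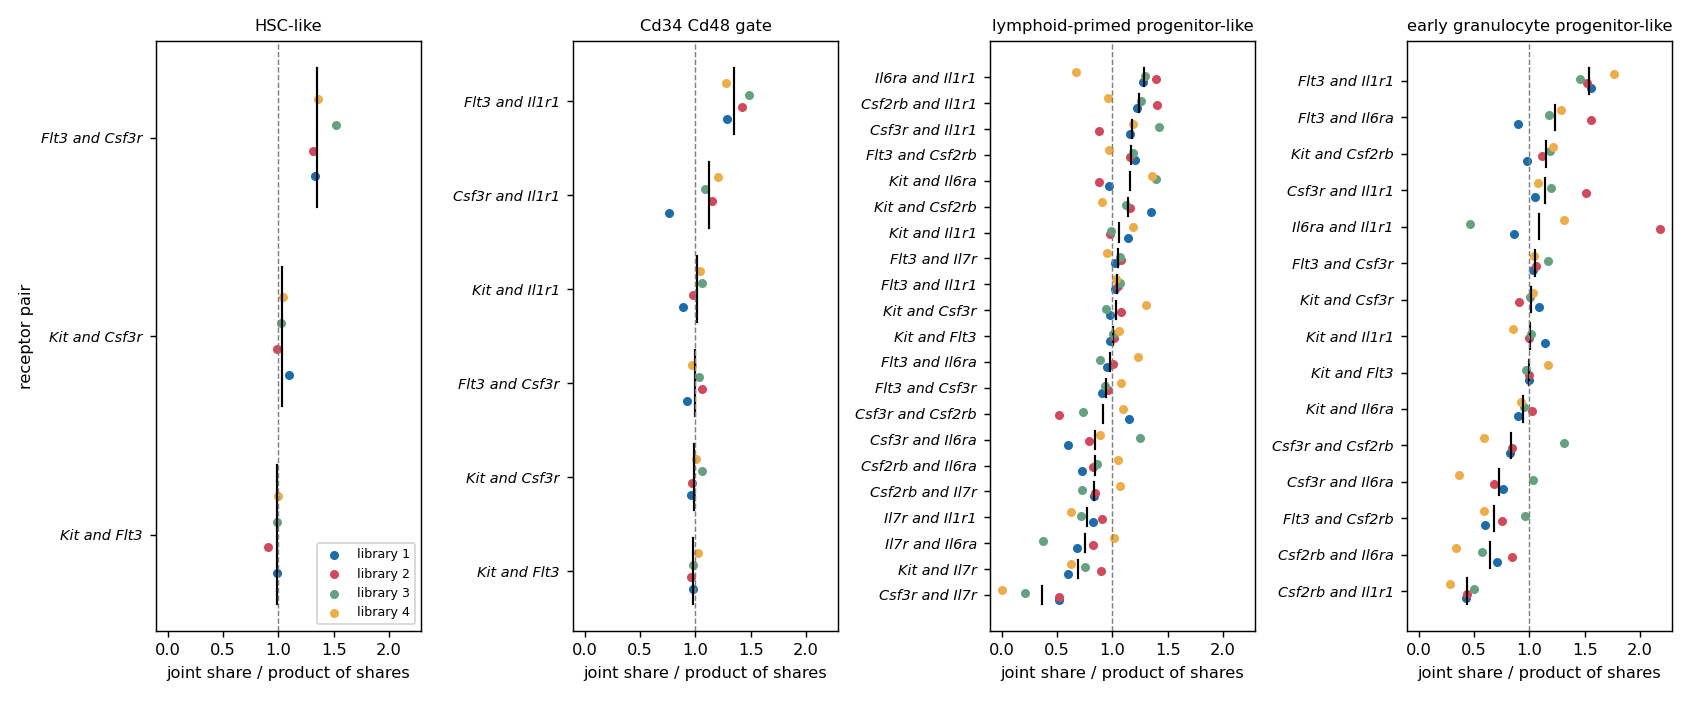
Joint share divided by the product of single shares for receptor pairs in the 4 largest gates, with 1 point per library, the median as a bar and a dashed line at 1. Flt3 with Il1r1 lay right of 1 in the Cd34 Cd48 and early granulocyte progenitor-like gates, and Csf3r with Il7r had the lowest ratio in lymphoid-primed cells, 0.36.

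A single cell carried few receptors at this depth. The mean number of the 9 genes seen per cell was highest, by its median over libraries, in common lymphoid progenitor-like cells, 1.89 to 2.38, and lymphoid-primed progenitor-like cells, 1.78 to 2.08. It was 0.945 to 1.25 in HSC-like cells, 0.634 to 0.782 in megakaryocyte progenitor-like cells and 0.288 to 0.478 in plasma cell-like cells. At least 3 receptors were seen in 22.4 to 31.9% of lymphoid-primed cells, against 2.98 to 6.42% of HSC-like cells.

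Across 17 gates and 4 libraries, 68 points that share libraries and cells, the genes most like each receptor were ranked by Pearson's r of log2(CPM + 1) among 8190 genes, as a description. Epor was matched most closely, by Ces2g (0.87), Samd14 (0.87) and Mfsd2b (0.85). Csf3r was most like Plppr3 (0.85), Gstm1 (0.81) and Ldhb (0.78), and Il7r most like Gprin3, Tmem108 and Colq (0.83 each). For Kit these were Diaph1, Dapp1 and Nfic (0.81 to 0.82), and for Csf1r Cfp, Trem2 and Lrp1 (0.79 to 0.80). Flt3 was most like Bmyc, Wasf2 and Bex6 (0.73 to 0.77), Il6ra like Zfp516, Scamp2 and Ctsh (0.76 each), Csf2rb like Fcgr2b, Erp29 and Nucb2 (0.69 to 0.76), and Il1r1 like Adgrl4, Fbxw4 and Cd27 (0.73 to 0.74). Between the receptors themselves the highest values were 0.57 for Flt3 with Il1r1 and 0.55 for Csf1r with Il6ra, and the lowest was -0.42, for Epor with Il7r.

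In the GENCODE vM21 annotation of GRCm38, Il1r1 lies at chr1:40225080-40317257 (plus strand), Il6ra at chr3:89864059-89913196 (minus), Csf3r at chr4:126024550-126044440 (plus), Kit at chr5:75574916-75656722 (plus), Flt3 at chr5:147330741-147400489 (minus), Epor at chr9:21958897-21963506 (minus), Il7r at chr15:9505788-9530176 (minus) and Csf2rb at chr15:78325752-78353847 (plus), with Csf1r at chr18:61100598-61132149 (plus).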

How the data were processed

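UMI counts per gene and cell were deposited as 1 aggregated matrix of 4 libraries. Its header names Cell Ranger 6.1.2, and the mm10 build is named per the submitters' processing notes. The planned mutant against WT comparison was not run, because no source ties a library to a sample. Barcodes under 500 genes or above 10% mitochondrial UMIs were removed, 3029 in all. Gates needed at least 3 markers with at least 2 UMIs, or both markers for the Cd34 Cd48 gate; this threshold was set after marker detection was seen. No doublets were removed. CPM is a gene's UMIs per 1000000 UMIs of the same gate and library. Ratios used a pseudocount of 1 CPM and genes of at least 5 CPM. Shares of cells used cells thinned to 5000 UMIs, and limits for 0 UMIs are 3 counts. Named genes were the 9 receptors, the 3 highest and 3 lowest other receptors past 2-fold by the library closest to 0, the 3 genes most like each receptor and the 3 highest and lowest pair ratios. One gene that the rule names is not reported here. The receptors and lists were chosen with earlier results of these data known. Intervals are 95% exact and cover counting error only. Contrast and pair code was tested on simulated data. Python 3.11.15, NumPy 2.4.6, SciPy 1.17.1, pandas 2.3.3, Scanpy 1.11.5, leidenalg 0.10.2 and Matplotlib 3.10.9 were used.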

Additional observations from a re-analysis of the deposited data

Results flagged for a closer look

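Flt3 and Il1r1 stood in opposite directions in cycling over resting cells of 2 gates, in each of the 4 libraries, and the difference between the gates was not tested. For Flt3 the median log2 ratio was 0.83 in the HSC-like gate and -0.90 in the Cd34 Cd48 gate. Cycling HSC-like cells had 44.5, 54.9, 44.0 and 31.7 CPM of Flt3 in libraries 1 to 4, against 34.6, 33.9, 21.7 and 13.4 CPM in resting ones. In the Cd34 Cd48 gate, cycling cells had 80.0, 93.7, 79.5 and 86.5 CPM, against 152, 173, 146 and 181 CPM in resting ones.

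For Il1r1 the median log2 ratio was 0.86 in the HSC-like gate and -0.62 in the Cd34 Cd48 gate. Cycling HSC-like cells had 15.9, 22.3, 16.3 and 11.5 CPM of Il1r1, against 9.93, 9.57, 7.51 and 6.77 CPM in resting ones. In the Cd34 Cd48 gate, cycling cells had 27.4, 30.5, 21.3 and 27.8 CPM, against 41.9, 56.3, 33.8 and 42.3 CPM in resting ones. In clusters drawn without the receptor genes, the HSC-like ratios turned, to -0.59 for Flt3 and -2.47 for Il1r1, the sign they had in the Cd34 Cd48 gate. At most 45.4 and 66.5% of cells in the clusters named HSC met any 1 marker set. None of these ratios met the 2-fold rule in 4 of 4 libraries. Median depth was 16098 to 16979 UMIs in cycling and 7212 to 8268 UMIs in resting HSC-like cells. In the Cd34 Cd48 gate, which took cells that met no other gate, it was 14606 to 15449 and 8059 to 8332 UMIs. The part of depth in these ratios was not tested.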

How the results depend on the processing

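Each main value was checked without each library in turn. Of these 144 checks, 139 stayed within the spread between libraries or, for counts, within 1.5 times. The Csf3r and Il7r ratio in lymphoid-primed cells, 0.36, ranged from 0.21 to 0.52. The 5 checks that moved were of counts. These were receptor genes lower in cycling Cd34 Cd48 cells (0 to 1) and other receptors lower in cycling HSC-like cells (0 to 1). Other receptors higher in granulocyte and monocyte cells (0 to 2) and in megakaryocyte and erythroid cells (0 to 1) also moved. The other alternatives were also counted as checks, 1 per main value and alternative. Of these, 206 stayed, 68 moved and 1, the Csf1r and Csf2rb ratio at 2 UMIs, reversed, and the cause was not tested. Checks of values outside the main ones were counted apart. Of those, 83 stayed, 22 moved and 3 reversed, the log2 ratios that turned in clusters as given below.

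With 1 marker more per gate, the level was followed in 1 gate per gene. It was 127 CPM for Csf2rb in basophil or mast cell-like cells and 64.4 for Csf3r in neutrophil-like cells. In common lymphoid progenitor-like cells it was 312 for Flt3 and 504 for Il7r. For Csf3r the macrophage-like gate, with the highest median in the main run (49.9 against 48.8 CPM), was passed over. It was also passed over for Csf1r, followed in the granulocyte and monocyte gate (119.7 against 38.2 CPM). Il6ra was followed in conventional dendritic-like cells and not in the Ccr2 Ly86 gate, which had the highest median (52.4 against 48.7 CPM). Flt3 was at 308 CPM with cells of more than 1 gate assigned, and Il1r1 at 44.4 CPM in clusters.

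The Csf1r and Csf2rb ratio in the granulocyte and monocyte gate was 1.05 at 5% mitochondrial UMIs, 1.01 without high doublet scores, 1.05 unthinned, 1.04 at 3000 UMIs and 0 when 2 UMIs were required. The Csf2rb and Il1r1 ratio in early granulocyte progenitor-like cells, 0.43, was 0.21 with 1 marker more, 0.64 at 5% mitochondrial UMIs, 0.95 without high doublet scores, 0.61 in clusters, 0.77 unthinned and 0.77 at 3000 UMIs. For Csf3r and Il7r in lymphoid-primed cells it was 0 at 2 UMIs. For Flt3 and Csf3r in HSC-like cells it was 1.498 with 1 marker more, 1.17 without high doublet scores, 1.57 unthinned, 1.47 at 3000 UMIs and 3.03 at 2 UMIs. For Flt3 and Il1r1 it was 1.22 unthinned and 1.81 at 2 UMIs in the Cd34 Cd48 gate, and in early granulocyte progenitor-like cells 2.81 with 1 marker more, 1.14 in clusters, 1.40 unthinned and 1.89 at 3000 UMIs. For Kit and Il7r in lymphoid-primed cells it was 0.84 with 1 marker more, 0.87 in clusters, 0.87 unthinned and 0.48 at 2 UMIs.

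In clusters, the log2 ratio reversed for Flt3 (-0.59) and Il1r1 (-2.47) in cycling HSC-like cells and for Flt3 (0.23) in megakaryocyte and erythroid cells. In the clusters named for these types, only the shares of cells given above met any 1 marker set. The counts that follow come from altered rules, with no share of all genes set beside them. At 20 CPM, genes averaging less over both sides were left out. Among them were Csf1r and Csf2rb for granulocyte and monocyte cells, and Epor and Csf3r for megakaryocyte and erythroid cells. For lymphoid-primed against HSC-like cells, 1 receptor gene was lower in clusters, with no filter and at 1.5-fold, other receptors higher were 1 with a pseudocount of 5 CPM and 2 at 20 CPM, and other receptors lower were 7 in clusters and 6 at 1.5-fold. For granulocyte and monocyte cells, receptor genes higher were 4 in clusters, 1 with a pseudocount of 5 CPM and 0 at 20 CPM, and 1 was lower with no filter and at 1.5-fold. Other receptors higher there were 1 with 1 marker more, 1 without high doublet scores, 2 in clusters and 3 at 1.5-fold, and other receptors lower were 7 in clusters, 2 at 20 CPM and 8 at 1.5-fold. For megakaryocyte and erythroid cells, 0 receptor genes were higher at 20 CPM, and 1 was lower in clusters, 1 at 20 CPM and 4 at 1.5-fold. Other receptors higher there were 0 in clusters and at 20 CPM, and lower ones 6 in clusters, 5 with a pseudocount of 5 CPM and 5 at 20 CPM. In cycling Cd34 Cd48 cells, 1 receptor gene was higher with no filter, 3 were lower at 1.5-fold and 1 other receptor was lower at 1.5-fold. In cycling HSC-like cells, 1 receptor gene and 2 other receptors were higher at 1.5-fold, and other receptors lower were 1 without high doublet scores, 2 in clusters and 2 at 1.5-fold.

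No paired analysis was possible because the libraries carry no replicate number and none is tied to a sample; the fit with a replicate block was therefore not run. Depth limited 3 gates most, with 159 of 201 mature B-like, 95 of 146 macrophage-like and 84 of 145 T, NK or innate lymphoid-like cells under 5000 UMIs.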

Other observations

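Some ligands of these receptors were measured in the same cells. Csf1, the ligand of CSF1R, was highest in basophil or mast cell-like cells at 39.1 to 57.1 CPM, where Csf1r had 0 UMIs. Il6 was also highest there, at 4.22 to 19.6 CPM on 29 UMIs. Kitl was highest in the macrophage-like gate at 12.5 to 31.3 CPM on 18 UMIs, and Il1b in megakaryocyte progenitor-like cells at 5.79 to 11.3 CPM on 164 UMIs. Epo, Csf3 and Il3 had 0 UMIs in the kept cells. Il1rl1, the interleukin-33 receptor, was highest in basophil or mast cell-like cells at 95.5 to 151 CPM.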
